A study of Mus musculus with 6 samples.

Results

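Nr4a2 separated the 6 cerebellar RNA-seq libraries of this study into 3 with a deposited value above 2 FPKM and 3 with a value under 1 FPKM, a unit that corrects read numbers for transcript length and sequencing depth. All 6 libraries of the series fell on a side. The Nr4a2-high libraries were WT 1 at 2.49 FPKM, WT 3 at 2.73 FPKM and HET 3 at 2.37 FPKM. The Nr4a2-low libraries were WT 2 at 0.481 FPKM, HET 1 at 0.484 FPKM and HET 2 at 0.708 FPKM. The members nearest the thresholds were therefore HET 3 and HET 2, and no library lay between them. The high side held 2 WT libraries and 1 HET library, and the low side held 1 WT library and 2 HET libraries, so the split crossed the labelled genotype.

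The study measured the cerebellum of male mice at 6 weeks after birth, 3 wild-type libraries (WT) with the strain label C57BL/6 and 3 libraries heterozygous for a null allele of Reln (HET) with the strain label Orl/BalbC. Reln encodes the extracellular matrix protein reelin, which directs where migrating neurons settle. Genotype and strain label coincided in every library and cannot be told apart. No treatment is named in the labels. The sources used here give neither the hour at which tissue was taken nor whether each library is a separate animal. Because the sides were chosen by a measured value, differences between them are given as a description with no test. Only the labelled comparison of HET with WT was tested.

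Nr4a2 (Nurr1), with Nr4a1 and Nr4a3, belongs to the NR4A family of nuclear receptors, which are transcribed within minutes of neuronal depolarisation, calcium entry or cyclic AMP signalling, along with Fos and Npas4. Many of these immediate early genes are read by the transcription factor CREB, which binds the cyclic AMP response element. The circadian clock is a transcriptional feedback loop. CLOCK and BMAL1 (encoded by Arntl) bind E-boxes and drive Per, Cry, Nr1d1, Nr1d2, Ciart, Dbp and Tef. The products of Per and Cry inhibit CLOCK and BMAL1, while the REV-ERB receptors (Nr1d1, Nr1d2) repress Arntl and the ROR receptors activate it. In a tissue with a running clock, Arntl transcripts peak in nearly the opposite phase to Nr1d1 and Dbp.

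The promoters of 7 genes are shown because they hold the short motifs tied to these pathways. The sequences lie directly upstream of an annotated start and outside every annotated exon, and are RefSeq sequences on GRCm38.p6, written 5′ to 3′ on the gene's own strand. Capitals mark TGACG, the core of the cyclic AMP response element, or CGTCA, the same letters read on the other strand, in the Nr4a and Fos promoters. Nr4a2 is at chr2:57124004-57124253 on the minus strand and held 4 copies. Nr4a1 is at chr15:101266596-101266845 on the plus strand, also with 4 copies. Nr4a3 is at chr4:48045055-48045152 on the plus strand with 3 copies in the stretch shown. Fos is at chr12:85473640-85473889 on the plus strand with 2 copies.
Nr4a2: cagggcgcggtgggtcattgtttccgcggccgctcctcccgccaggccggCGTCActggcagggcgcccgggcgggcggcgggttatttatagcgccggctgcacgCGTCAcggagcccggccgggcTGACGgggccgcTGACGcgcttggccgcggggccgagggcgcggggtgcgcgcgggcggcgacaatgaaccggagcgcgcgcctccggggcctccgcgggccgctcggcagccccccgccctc
Nr4a1: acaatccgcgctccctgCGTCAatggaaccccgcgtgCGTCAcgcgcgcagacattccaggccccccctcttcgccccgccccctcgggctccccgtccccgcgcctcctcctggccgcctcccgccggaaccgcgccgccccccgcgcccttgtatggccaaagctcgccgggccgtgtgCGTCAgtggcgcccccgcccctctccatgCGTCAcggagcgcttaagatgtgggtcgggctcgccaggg
Nr4a3: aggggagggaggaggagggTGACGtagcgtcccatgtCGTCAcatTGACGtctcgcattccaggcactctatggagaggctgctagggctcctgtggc
Fos: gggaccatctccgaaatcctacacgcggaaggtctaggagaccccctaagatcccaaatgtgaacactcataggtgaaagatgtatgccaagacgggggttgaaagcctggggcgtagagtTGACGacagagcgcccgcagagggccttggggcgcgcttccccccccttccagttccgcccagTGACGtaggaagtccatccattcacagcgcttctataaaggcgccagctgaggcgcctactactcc

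In the next group, capitals mark CACGTG, the canonical E-box. Ciart is at chr3:95882252-95882478 on the minus strand and held 3 copies. Tef is at chr15:81811164-81811413 on the plus strand with 1 copy, and Per1 at chr11:69098699-69098947 on the plus strand with 1 copy.
Ciart: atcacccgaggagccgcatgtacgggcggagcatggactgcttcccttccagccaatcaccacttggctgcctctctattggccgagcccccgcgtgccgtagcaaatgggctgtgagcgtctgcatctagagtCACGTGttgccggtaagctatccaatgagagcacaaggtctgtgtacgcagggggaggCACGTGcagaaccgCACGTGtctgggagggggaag
Tef: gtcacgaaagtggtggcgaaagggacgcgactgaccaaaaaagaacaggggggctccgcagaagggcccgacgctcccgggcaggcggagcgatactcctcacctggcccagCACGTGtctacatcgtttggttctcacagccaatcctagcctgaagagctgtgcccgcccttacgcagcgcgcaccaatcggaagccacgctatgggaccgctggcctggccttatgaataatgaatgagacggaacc
Per1: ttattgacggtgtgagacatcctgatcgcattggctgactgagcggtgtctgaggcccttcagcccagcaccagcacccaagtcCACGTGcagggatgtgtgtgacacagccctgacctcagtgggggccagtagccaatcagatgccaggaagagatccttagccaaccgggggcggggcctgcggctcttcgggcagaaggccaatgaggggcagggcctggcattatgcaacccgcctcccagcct

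Libraries were put on a common scale by median-of-ratios scaling, and a level below is the scaled FPKM unless it is called as deposited. A log2 difference is the mean of log2(scaled FPKM + 0.1) in the Nr4a2-high libraries minus that in the Nr4a2-low libraries, so a negative value means a lower level in the Nr4a2-high libraries and low genes are understated. Approximate depths were 22100000 to 27700000 reads, and the 3 libraries of each side overlapped in depth. Of 24537 genes listed, 12217 had a mean of at least 0.1 scaled FPKM and were compared. For 1069 of them (8.75%) every Nr4a2-high library lay above every Nr4a2-low library, and for 1258 (10.3%) every one lay below. Adding a ratio of mean levels of at least 1.5, 30 genes (0.246%) were higher and 37 (0.303%) lower. The rule used this same contrast, so these shares stand as background and nothing is read from the counts of list members against them.

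Nr4a2 (ENSMUSG00000026826, chr2:57106830-57124003 on the minus strand, mm10) stood at 2.29, 2.73 and 2.39 scaled FPKM in WT 1, WT 3 and HET 3 and at 0.574, 0.487 and 0.625 in WT 2, HET 1 and HET 2. The mean level was 4.40-fold higher on the side it defines. Approximately 28.2 reads lay behind its lowest value and 180.9 behind its highest, which gives a counting error of 18.8% and 7.43% of the level. These errors cover the sampling of reads only, and the gap itself was set by the rule.

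The other NR4A receptors followed the same partition. Nr4a1 (Nur77) stood at 3.23, 3.38 and 3.71 scaled FPKM in WT 1, WT 3 and HET 3, against 1.54, 0.680 and 1.94 in WT 2, HET 1 and HET 2, a log2 difference of 1.36. Nr4a3 (Nor1) stood at 0.718, 0.857 and 0.647 against 0.126, 0.110 and 0.165, a 5.55-fold ratio of mean levels and a log2 difference of 1.85. All 3 members of the family were higher in every Nr4a2-high library. Within the WT libraries alone the log2 difference was 1.05 for Nr4a1 and 1.97 for Nr4a3, and within the HET libraries alone it was 1.60 and 1.66.

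Fos (ENSMUSG00000021250, chr12:85473890-85477273 on the plus strand) encodes the AP-1 subunit most used as a mark of recent neuronal activity. Its levels were 20.1, 24.1 and 25.3 scaled FPKM in WT 1, WT 3 and HET 3, against 5.84, 1.51 and 11.8 in WT 2, HET 1 and HET 2. The sides did not overlap, but the Nr4a2-low libraries were themselves spread widely, with HET 1 lowest and HET 2 nearest the high side. The log2 difference of 2.26 was the largest of any gene with a mean of at least 1 scaled FPKM and no overlap.

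Npas4 (ENSMUSG00000045903, chr19:4984355-4990316 on the minus strand), a transcription factor induced almost only by depolarisation and calcium, stood at 1.79, 1.62 and 1.18 scaled FPKM in WT 1, WT 3 and HET 3. In WT 2, HET 1 and HET 2 it stood at 0.443, 0.221 and 0.968. The log2 difference was 1.49, with HET 2 again close to the lowest Nr4a2-high library. Fosb, another AP-1 subunit, was at 0.181, 0.157 and 0.198 scaled FPKM against 0.0363, 0.0109 and 0.062, but only about 0.3 to 5.9 reads lay behind these values. Dusp1, a phosphatase that switches off MAP kinases, was at 24.7, 23.5 and 24.5 scaled FPKM against 18.2, 7.98 and 17.1. Its gap was set largely by HET 1, with WT 2 and HET 2 much nearer the high side.

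**Figure D1:**
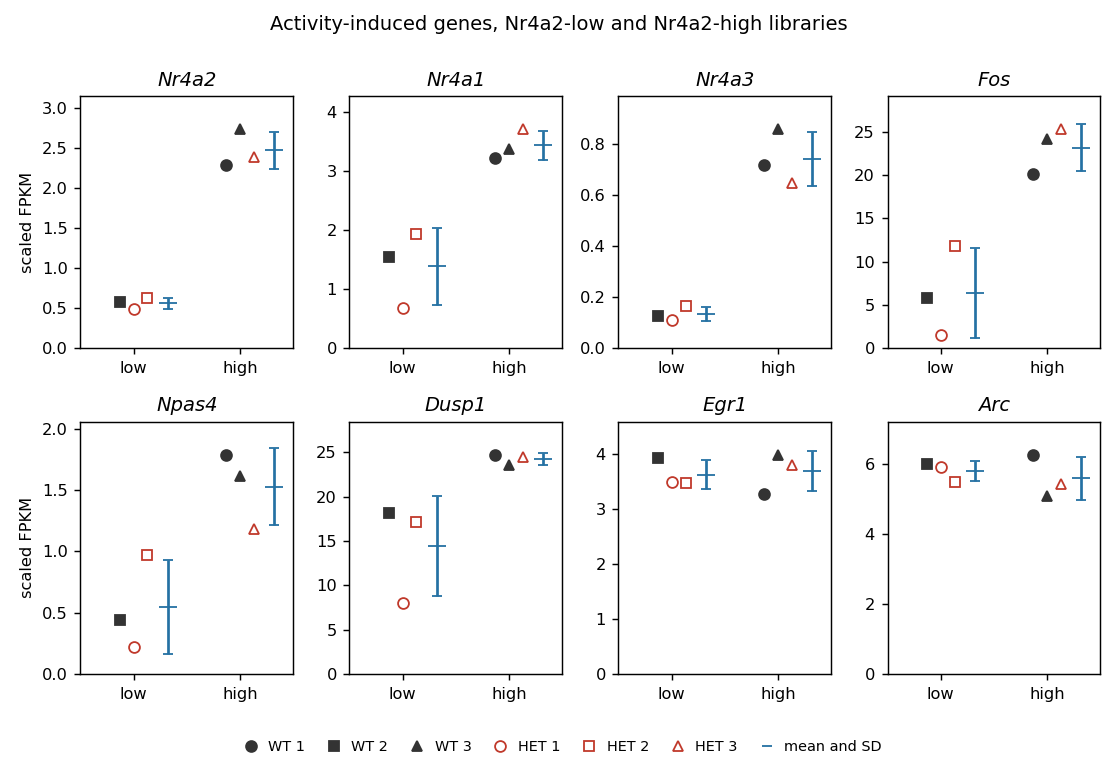
Scaled FPKM (y axis, from 0, a scale for each gene) of 8 activity-regulated genes in the Nr4a2-low and Nr4a2-high libraries (x axis), with a marker for each library, filled black for WT and open red for HET, and the mean and SD of each side in blue. Nr4a2, Nr4a1, Nr4a3, Fos, Npas4 and Dusp1 separate the sides without overlap, while Egr1 and Arc do not.

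Other activity-regulated genes did not separate the sides. Egr1, a zinc finger factor induced with Fos in most neurons, was at 3.27, 3.98 and 3.80 scaled FPKM in WT 1, WT 3 and HET 3 and at 3.92, 3.48 and 3.46 in WT 2, HET 1 and HET 2, a log2 difference of 0.02. Arc, which encodes a synaptic protein that acts in AMPA receptor removal, was at 6.27, 5.08 and 5.42 against 6.02, 5.93 and 5.49, a log2 difference of -0.06. The sides also overlapped for Junb at 0.09, Homer1 at -0.02 and Bdnf at 0.58 on the log2 scale. Of the 76 listed activity genes, 64 were compared, 22 were higher in every Nr4a2-high library, 6 were lower and 36 overlapped. With FPKM as deposited, 17 of the 22 and 2 of the 6 kept their call.

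By role, 9 of the 19 compared transcription factors other than the NR4A genes were higher and 2 lower, with a list median of 0.21 on the log2 scale against -0.0080 over all genes compared. Beside Fos, Fosb and Npas4, the higher ones were Fosl2, Klf2, Klf4, Nfil3, Ier2 and Klf6. Klf4, a Krüppel-like factor, was at 0.843, 0.525 and 0.603 scaled FPKM against 0.241, 0.247 and 0.341. Fosl2, an AP-1 subunit, had a log2 difference of 0.93 and Klf2, a Krüppel-like factor prominent in endothelium, of 0.94. Ier2 at 0.27 and Klf6 at 0.21 were small differences. The lower ones were Klf10 and Bhlhe40, which are also clock genes and are described with them.

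Among feedback regulators, which limit signalling after a stimulus, 7 of 23 were higher, 3 lower and 13 overlapped, with a median of 0.11. Spry4, an inhibitor of receptor tyrosine kinase signalling, was at 1.17, 1.10 and 1.00 scaled FPKM in WT 1, WT 3 and HET 3 and at 0.438, 0.379 and 0.595 in WT 2, HET 1 and HET 2. Dusp4, a MAP kinase phosphatase, had a log2 difference of 0.75, Trib1 of 0.58 and Sik1, a kinase that restrains CREB coactivators, of 0.56. Dusp1, described above, Tiparp at 0.23 and Coq10b at 0.12 made up the rest of the higher group. Sertad1 went the other way at 2.16, 2.09 and 2.07 scaled FPKM against 3.47, 3.76 and 3.11. Rrad was also lower, at -0.84, from about 4.7 to 20.6 reads a library, and Gadd45b at -0.12.

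Of the effectors, the secreted and synaptic proteins made downstream, 3 of 19 were higher, 1 was lower and 15 overlapped, with a median of 0.065. Over all genes compared, 19.0% did not overlap. The 3 were Plk3, a kinase, with a log2 difference of 0.60, Apold1, an endothelial early response gene, at 0.48 and Adcyap1, which encodes the neuropeptide PACAP, at 0.46. Penk, the precursor of enkephalins, was the lower one, at -0.19.

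With median-of-ratios scaling, the Nr4a2-low libraries were often ordered alike over the activity genes without overlap. Of the 22 activity genes that were higher in every Nr4a2-high library, HET 1 had the lowest level in 17 and WT 2 in 5, and HET 2 in 0. HET 2 was the low library nearest the high side in 19 of them. Among the Nr4a2-high libraries, WT 1 had the highest level in 13. These counts cover only genes kept for their lack of overlap, and the matching shares over all genes compared were not taken. WT 2 and HET 2 also had the most extreme scaling factors, 0.838 and 1.133, and which library was lowest depended on scaling. With FPKM as deposited, HET 1 was lowest for Nr4a1, Fos, Fosb, Npas4, Klf2, Dusp1, Apold1 and Adcyap1. For the rest of the 22 genes WT 2 was then lowest.

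Clock genes were found on both sides of the split. The transcriptional activators and the receptors that sustain Arntl were higher in the Nr4a2-high libraries. Arntl (chr7:113207465-113314126 on the plus strand) was at 0.610, 0.598 and 0.559 scaled FPKM in WT 1, WT 3 and HET 3, against 0.397, 0.435 and 0.374 in WT 2, HET 1 and HET 2. The ratio of mean levels was 1.47. Counting errors of 14.9% to 21.7% on about 44.9 to 21.3 reads are large beside that gap. Clock, the partner of BMAL1, was at 1.89, 2.12 and 1.93 scaled FPKM against 1.64, 1.61 and 1.48, a 1.26-fold ratio. The Nr4a2-low libraries lay below the others for both genes.

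All 5 compared activators were higher in every Nr4a2-high library, including Rora at 0.23 and Rorb at 0.17 on the log2 scale (Rorb on about 5.7 to 10.2 reads a library), and the list median was 0.31. The other 2 listed activators, Npas2 and Arntl2, were under the mean minimum. Npas2 rested on about 1.8 to 2.8 reads a library.

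The E-box targets that repress the loop were mostly lower. Ciart (Chrono, ENSMUSG00000038550, chr3:95878503-95882251 on the minus strand) encodes a repressor of CLOCK and BMAL1. It stood at 1.36, 1.49 and 1.21 scaled FPKM in WT 1, WT 3 and HET 3 and at 3.11, 3.25 and 4.50 in WT 2, HET 1 and HET 2, so the mean was 2.68-fold higher in the Nr4a2-low libraries. Its log2 difference of -1.34 was the lowest of any gene with a mean of at least 1 scaled FPKM and no overlap. About 37 to 186.9 reads lay behind these values.

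Nr1d1 (chr11:98767932-98775333 on the minus strand), which encodes REV-ERB alpha, was at 4.81, 6.22 and 5.09 scaled FPKM in WT 1, WT 3 and HET 3, against 9.79, 8.60 and 8.14 in WT 2, HET 1 and HET 2. Nr1d2, which encodes REV-ERB beta, was at 3.85, 4.04 and 3.80 against 5.33, 5.26 and 5.35. Both receptors were lower in every Nr4a2-high library, with log2 differences of -0.71 and -0.44. Nr1d1 overlaps Thra on the opposite strand, and C920021L13Rik overlaps Ciart in the same way. The libraries were stranded, but the sources used here name no strand setting for the quantification, so their levels may hold reads of the partner gene.

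The period genes did not move as a unit. Per2 (chr1:91415982-91459324 on the minus strand) was at 0.311, 0.274 and 0.224 scaled FPKM against 0.370, 0.433 and 0.392, lower in each Nr4a2-high library on about 28.6 to 67.9 reads. Per1, which besides its E-box responds to cyclic AMP and glucocorticoid signalling, was higher, at 3.07, 3.65 and 2.43 against 2.38, 2.00 and 2.24. HET 3 and WT 2 nearly touched for Per1. Per3 at -0.12, Cry1 at 0.17 and Cry2 at -0.04 on the log2 scale overlapped between the sides.

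Nfil3 and Bhlhe40 stand in both the activity and the repressor lists. Nfil3, which competes with DBP for D-boxes, was at 2.09, 2.02 and 1.77 scaled FPKM in WT 1, WT 3 and HET 3 and at 0.960, 1.04 and 1.34 in WT 2, HET 1 and HET 2. Bhlhe40 and Bhlhe41 (DEC1 and DEC2), which compete at E-boxes, were lower, each with a log2 difference of -0.30. In all, 6 of 11 repressors were lower, 2 were higher and 3 overlapped, with a median of -0.30.

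Clock outputs were led by the PAR bZIP factors, which carry the rhythm to D-box genes. Dbp (ENSMUSG00000059824, chr7:45705088-45710203 on the plus strand) was at 8.01, 7.96 and 8.36 scaled FPKM in WT 1, WT 3 and HET 3 and at 16.3, 15.7 and 14.0 in WT 2, HET 1 and HET 2, a 1.89-fold higher mean in the Nr4a2-low libraries. Dbp overlaps Sphk2 on the opposite strand, with the same limit as above. Tef was at 6.21, 6.44 and 6.84 against 9.11, 9.17 and 8.87, a 1.39-fold ratio. Hlf, the remaining PAR bZIP factor, overlapped at 0.03 on the log2 scale.

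Klf10 (ENSMUSG00000037465, chr15:38291463-38300706 on the minus strand) encodes a Krüppel-like factor induced by TGF-beta and also driven by the clock. Its levels were 1.29, 1.25 and 0.978 scaled FPKM in WT 1, WT 3 and HET 3, against 1.56, 1.95 and 2.26 in WT 2, HET 1 and HET 2. The difference was uneven between genotypes, -0.27 within the WT libraries and -1.03 within the HET libraries on the log2 scale. With FPKM as deposited the sides of Klf10, Per1 and Per2 overlapped, while each kept its direction. Of 15 compared outputs, 7 were lower, 1 was higher and 7 overlapped, with a median of -0.13. The higher one was Usp2, a deubiquitinase, at 0.28, and the others that were lower were Tsc22d3 at -0.54, Tspan4 at -0.49, Klf11 at -0.18 and Wee1 at -0.10.

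Kinases and ubiquitin ligases that set the turnover of clock proteins differed little. Of 11 compared, Gsk3b at 0.24, Fbxl21 at 0.20, on only about 3.1 to 4.9 reads a library, and Csnk1e at 0.11 were higher, Fbxw11 at -0.32 was lower and 7 overlapped. Over all 42 compared of 47 listed clock genes, 11 were higher, 14 lower and 17 overlapped, with a median of -0.037. With FPKM as deposited, 8 of the 11 higher genes kept their call but only 5 of the 14 lower ones did: Ciart, Nr1d1, Nr1d2, Dbp and Tef. The order seen among the Nr4a2-low libraries for activity genes with scaled FPKM was not repeated here. Of the 14 lower clock genes, the highest level was in HET 1 for 6, in HET 2 for 6 and in WT 2 for 2.

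**Figure D2:**
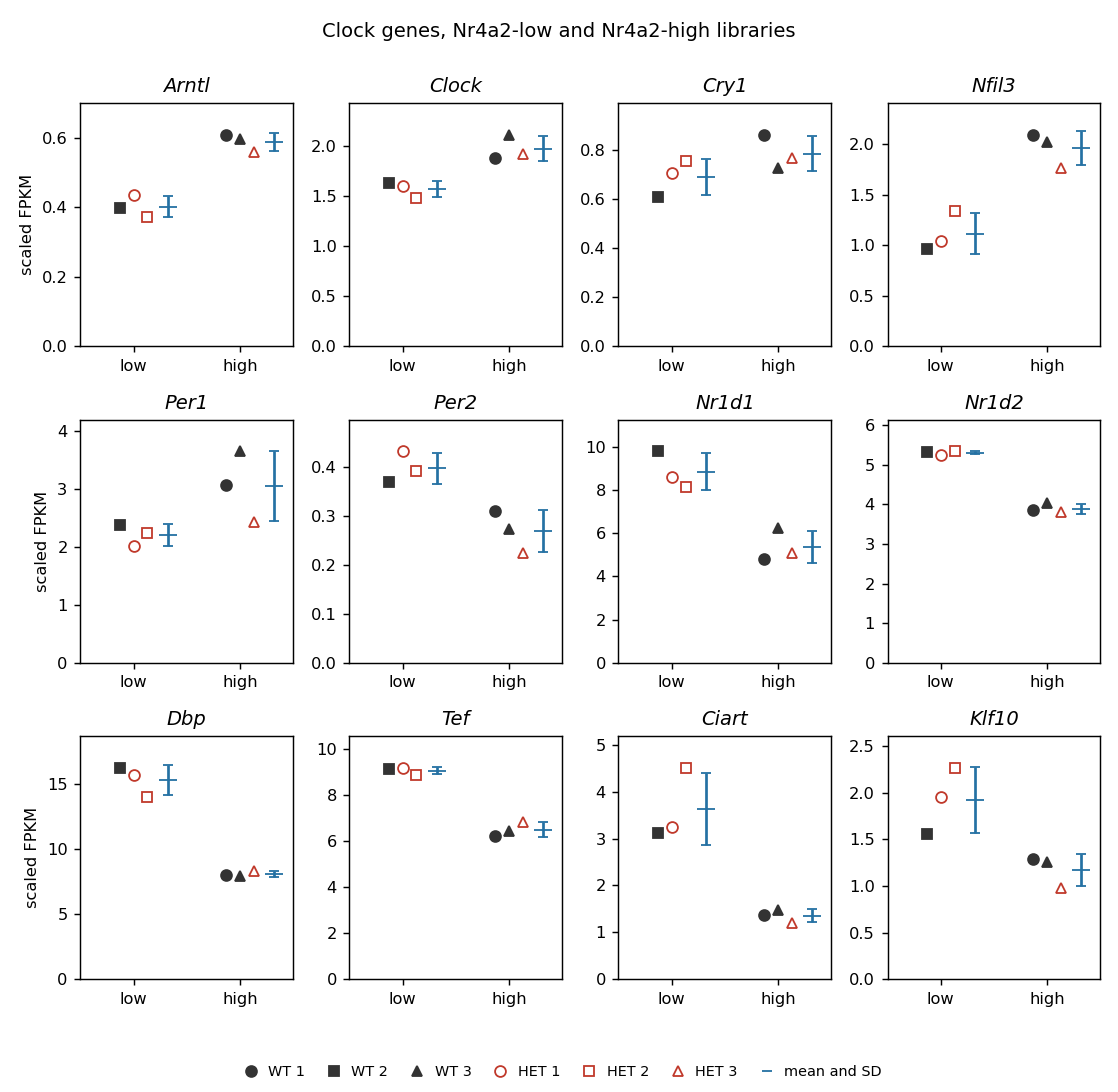
Scaled FPKM (y axis, from 0, a scale for each gene) of 12 clock genes in the Nr4a2-low and Nr4a2-high libraries (x axis), filled black for WT and open red for HET, with the mean and SD of each side in blue. Arntl and Clock lie higher and Nr1d1, Nr1d2, Ciart, Dbp and Tef lower in WT 1, WT 3 and HET 3 than in WT 2, HET 1 and HET 2.

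The same differences were taken within each genotype, WT 1 and WT 3 against WT 2, and HET 3 against HET 1 and HET 2. These use no library in common, but each has a side with a single library. Nr4a2 itself differed by 1.95 in WT and 1.93 in HET on the log2 scale. Fos differed by 1.90 and 2.53, and Npas4 by 1.73 and 1.13. Activity genes that separated the 6 libraries were thus higher in the Nr4a2-high library or libraries of both genotypes, as a lack of overlap requires.

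Among clock genes, Ciart differed by -1.08 in WT and -1.58 in HET, Dbp by -1.02 and -0.82, Nr1d1 by -0.83 and -0.71, and Arntl by 0.50 and 0.39. The sign of each was again fixed by the lack of overlap. Over all 12217 genes, Pearson's r between the WT and the HET difference was -0.062, and -0.078 over the 6342 genes with a mean of at least 1 scaled FPKM. The genes named above cannot be set against these values, because their lack of overlap gives them the same sign in both genotypes. These correlations are across genes, which are not independent replicates, and all genes of a library share its depth and scaling.

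**Figure D3:**
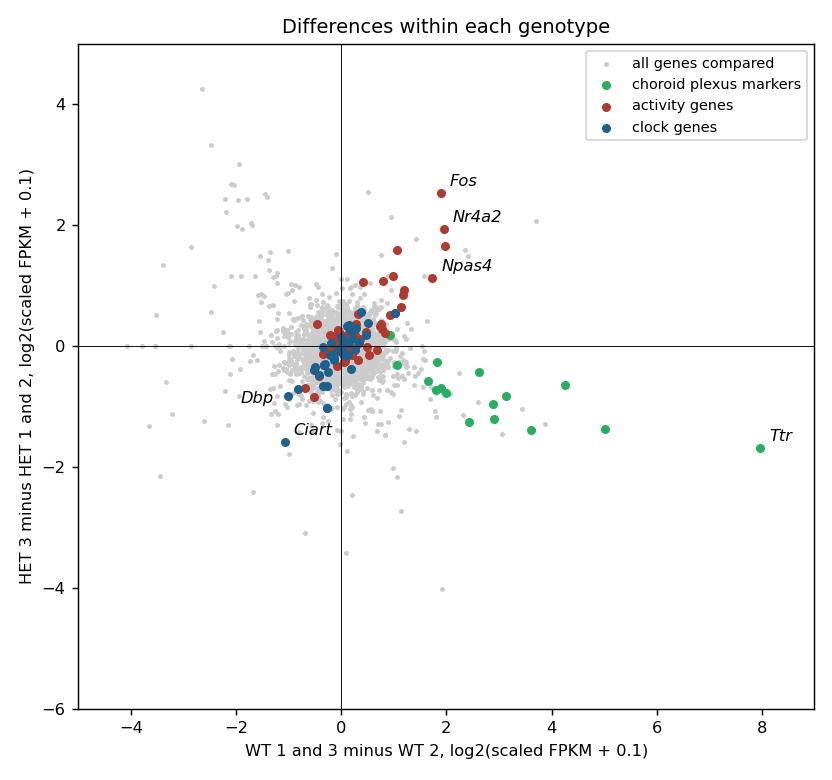
Log2 difference within WT (x axis) against that within HET (y axis) for each gene compared (grey), with all compared activity genes in red, clock genes in blue and choroid plexus markers in green. Nr4a2, Fos and Npas4 lie in the upper right and Ciart and Dbp in the lower left, while Ttr lies far to the right and below 0.

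Beyond the lists, the 12 largest positive differences among genes with a mean of at least 1 scaled FPKM were led by Fos, Nr4a2, Npas4, Nr4a1 and Dusp1, and also held Nfil3. The rest were Tfe3, Fam43a, Phlda1, Mmp14, Sox2 and Prag1. Tfe3, a transcription factor of lysosomal and nutrient response genes, was at 3.28, 3.13 and 3.11 scaled FPKM in WT 1, WT 3 and HET 3 and at 1.84, 1.75 and 1.82 in WT 2, HET 1 and HET 2, so the spread within each side was far smaller than the gap. Sox2, which in the adult cerebellum marks Bergmann glia and astrocytes, was at 9.88, 9.43 and 10.7 against 6.05, 6.65 and 7.17. It overlaps Sox2ot on the same strand, so its level may hold reads of that gene. In the list of 14 Bergmann glia and astrocyte markers, which does not hold Sox2, Sox9 at 0.46 and Fabp7 at 0.14 were higher, Gjb6 at -0.34 was lower and 11 overlapped, with a median of 0.058. Over all genes compared, 19.0% did not overlap, so nothing is read from this count. With FPKM as deposited Sox9 kept its call, while Fabp7 and Gjb6 overlapped. Phlda1 at 0.61 and Mmp14, a membrane metalloprotease, at 0.59 were of like size to Sox2, at 0.59.

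The 12 lowest differences held the clock genes Ciart, Dbp, Nr1d1 and Klf10, together with Sertad1. The other genes were Snora68, with a 2.02-fold higher mean in the Nr4a2-low libraries, and, as log2 differences, Crip1 at -0.97, Chac1, a glutathione-degrading enzyme of the stress response, at -0.86, the linker histone gene Hist1h1d at -0.80, Klhl33 at -0.69, Mt2 at -0.60 and Sult1a1 at -0.60. Snora68 is a small nucleolar RNA, for which a library of fragments gives an uncertain level. Mt2, a metallothionein induced by glucocorticoids and metals, was at 66.7, 57.2 and 54.5 scaled FPKM in WT 1, WT 3 and HET 3 and at 85.5, 97.1 and 88.0 in WT 2, HET 1 and HET 2.

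Genes induced through the glucocorticoid receptor, which binds corticosterone, formed a further list. Of 18 listed, 15 were compared, 4 were lower in every Nr4a2-high library (Plin4, Mt2, Sult1a1 and Tsc22d3), 1 was higher (Per1) and 10 overlapped, with a median of -0.19. Plin4, a lipid droplet protein, was at 0.285, 0.202 and 0.177 scaled FPKM against 0.424, 0.452 and 0.389. The remaining 3 were under the mean minimum and are named after their values were seen. Without a filter on low values, 7 of the 18 were lower and 1 was higher, beside 7.83% and 7.59% of all 19511 genes. With FPKM as deposited, Plin4 kept its call, while Mt2, Sult1a1, Tsc22d3 and Per1 overlapped between the sides. Plin4, Sult1a1 and Mt2 overlap Hdgfl2, Sgf29 and Gm45774 on the opposite strand, so their levels may hold reads of those genes.

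Zbtb16, a transcription factor and strong glucocorticoid target, was at 0.0205, 0.0174 and 0.0180 scaled FPKM in WT 1, WT 3 and HET 3 and at 0.0980, 0.139 and 0.106 in WT 2, HET 1 and HET 2, on about 1 to 8.4 reads a library. Fkbp5, a cochaperone of the receptor, was at 0.0752, 0.0609 and 0.0520 against 0.0991, 0.145 and 0.134, on about 1.6 to 5.6 reads. Map3k6, a stress-activated kinase, was at 0.0481, 0.0550 and 0.0510 against 0.110, 0.185 and 0.142, on about 4.8 to 19.4 reads. The values of all 3 were ordered alike, but rested on few reads. Sgk1, Klf9 and Ddit4, which are also induced by glucocorticoids, overlapped between the sides, and so did all 14 genes of the cold and heat response.

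**Figure D4:**
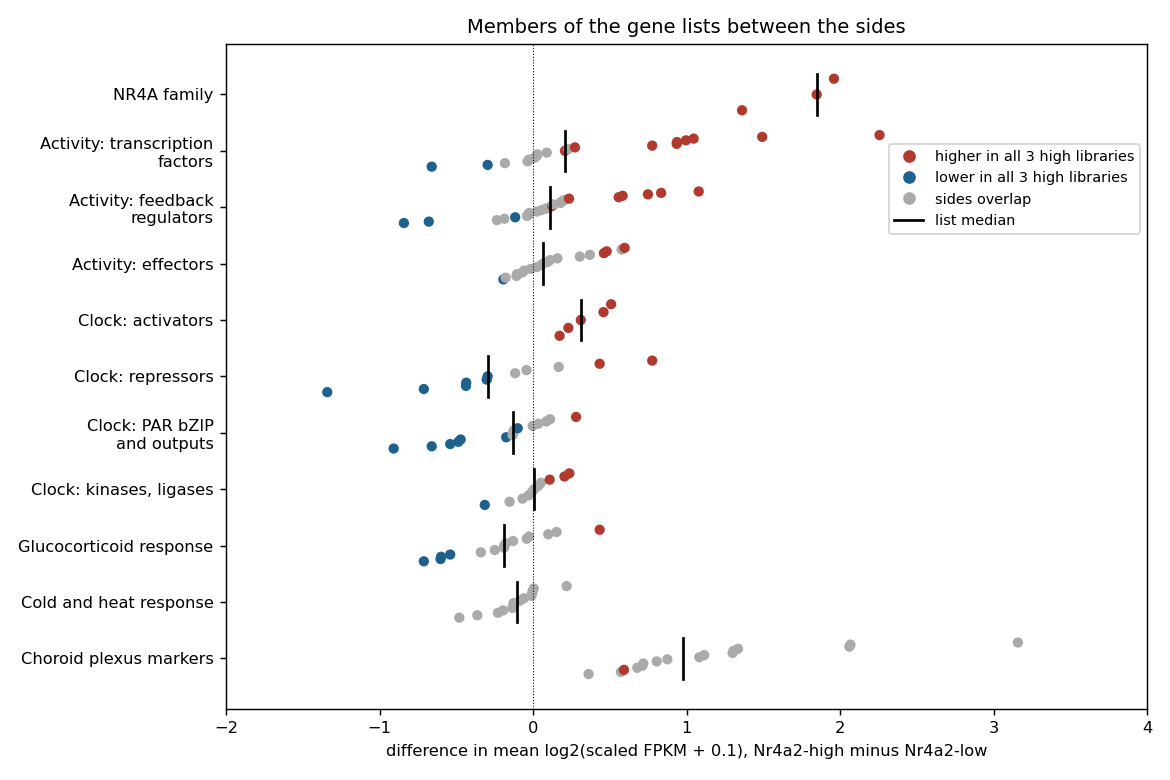
Log2 difference (Nr4a2-high minus Nr4a2-low) of each compared member of the activity, clock, glucocorticoid, temperature and choroid plexus lists, coloured by whether the sides overlapped, with a bar at the list median. The NR4A genes lie at the right, clock repressors reach furthest left, and the choroid plexus markers lie to the right but overlap between the sides except Otx2.

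Markers of other cell types were measured in the same libraries. Cerebellar identity was clear on both sides: summed granule cell markers were at 678 to 731 scaled FPKM in the Nr4a2-high and 614 to 771 in the Nr4a2-low libraries, and summed Purkinje cell markers at 656 to 750 and 663 to 761. Choroid plexus markers varied most. Ttr, the transthyretin gene that defines choroid plexus epithelium, was at 251, 150 and 6.49 scaled FPKM in WT 1, WT 3 and HET 3 and at 0.675, 3.17 and 138 in WT 2, HET 1 and HET 2. The list of 19 summed to 12.2 to 289 on the high side and 4.25 to 160 on the low side.

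For choroid plexus, 1 of 16 compared genes did not overlap, Otx2, at 0.59. The list's median difference of 0.98 was 2.53 within WT and -0.74 within HET. The HET 2 library had high Ttr and low Nr4a2, and HET 3 the reverse.

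Summed markers of forebrain were at 12.2 to 14.1 against 11.1 to 12.6 scaled FPKM and those of midbrain dopamine neurons, where Nr4a2 is a lineage factor, at 3.27 to 3.75 against 3.50 to 4.21. Of 10 dopamine neuron markers, 2 were at 0 in every library and 6 were under the mean minimum. Of 6 compared forebrain markers, Drd1 at 0.48 (on about 4.6 to 16 reads) and Neurod6 at 0.36 on the log2 scale were higher and 4 overlapped. Summed unipolar brush cell markers did not overlap, at 20.0 to 22.4 scaled FPKM in the Nr4a2-high and 14.5 to 19.2 in the Nr4a2-low libraries, although 5 of the 6 compared genes overlapped singly and Nmb was lower.

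Of 14 endothelial and pericyte markers, Cldn5 at 0.45 and Kdr at 0.41 were higher, Slc2a1 at -0.37 and Kcnj8 at -0.27 (named after its values were seen) were lower and 10 overlapped, with a median of 0.045. With FPKM as deposited Cldn5 kept its call, while Kdr and Slc2a1 overlapped. Slc2a1 overlapped with upper-quartile scaling as well. Of 17 granule cell markers, 15 overlapped and 9 had a higher mean, with a median of 0.015. The other two, Gabrd, a GABA receptor subunit, at -0.42 and Slc17a7, a vesicular glutamate transporter, at -0.13, were lower, and both overlapped with FPKM as deposited. Beside the counts of both lists, 19.0% of all genes compared did not overlap. In bulk tissue, fewer cells of a type and less RNA per cell cannot be told apart. The part of these markers in the differences of the activity and clock genes was not tested.

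The motifs marked in the sequences above were counted in the RefSeq promoters, 250 bases before to 50 after each start, on both strands. TGACG was in 20.8% of 32851 promoters. Of the 22 activity genes that were higher, 17 had a promoter entry, and 14 of these held the motif, in 15 of 18 promoters (83.3%). They were Adcyap1, Apold1, Coq10b, Dusp1, Fos, Fosb, Klf2, Klf4, Nfil3, Npas4, Nr4a1, Nr4a2, Nr4a3 and Plk3. The longer palindrome TGACGTCA, which contains TGACG, was in 1.79% of all promoters and, of these genes, in that of Dusp1 alone.

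CACGTG was in 7.15% of all promoters. Of the 14 lower clock genes, 10 had a promoter entry and 5 held it (Bhlhe41, Ciart, Klf11, Tef and Tspan4), in 6 of 14 promoters (42.9%). Among the higher clock genes it was in 1 of 18 promoters, the Per1 promoter shown above. Another Per1 promoter, at chr11:69099902-69100151, held 0 copies. It was also in 4 of the 18 promoters of the higher activity genes (22.2%; Coq10b, Dusp1, Klf4 and Klf6). TGACG was in 7 of the 18 promoters of the higher clock genes (38.9%) and in 1 of the 14 of the lower ones. A match is a description of these windows and not evidence of binding. The listed genes were picked for a known link to activity or the clock, and promoters of members that overlapped were not counted. The shares therefore cannot tie a motif to the split.

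The labelled comparison of HET with WT was tested over the same 12217 genes with limma, on log2(scaled FPKM + 0.1) with p-values adjusted by Benjamini and Hochberg's method. With a threshold of 0.05, 1 gene was higher in HET (0.00819%) and 0 were lower (0.0%), and 616 genes were under 0.05 unadjusted. The gene was Mir6392, which is listed at 0 in every WT library. Of the 64 activity genes and the 42 clock genes, 0 passed in either direction, with a smallest adjusted p of 0.839 in limma. Unadjusted, 5 activity genes (Dusp5, Rrad, Arl4d, Rasl11b and Adcyap1) and 2 clock genes (Per1 and Sfpq) were under 0.05.

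Nr4a2 was at 1.87 ± 1.14 scaled FPKM in WT and 1.17 ± 1.06 in HET (SD, n = 3 each). The HET minus WT difference was -0.70 on the log2 scale (SE 0.71, adjusted p = 0.87 by limma), with an exact two-sided permutation p of 0.5. Ciart was at 1.99 ± 0.976 in WT and 2.99 ± 1.66 in HET, with an adjusted p of 0.87 by limma. Npas4 had an HET minus WT difference of -0.67 and Klf10 of 0.25, with adjusted p of 0.87 and 0.88 by limma. For each of these 4 genes the SD among the HET libraries exceeded the difference between the genotype means. Reln, the targeted gene, was at 0.767, 0.920 and 0.942 scaled FPKM in the WT libraries and at 0.534, 0.449 and 0.586 in the HET libraries. Its groups did not overlap, with a log2 difference of -0.65 (SE 0.11, adjusted p = 0.84 by limma). The exact permutation p was 0.1, the smallest that 3 against 3 libraries can give. Reln thus followed the labels, and its levels overlapped between the Nr4a2-high and Nr4a2-low libraries.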

How the data were processed

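RNA was measured in 6 mouse cerebellar libraries, 3 WT and 3 HET, grouped by sample title. Per the labels' protocols, the authors made stranded total RNA libraries, read 75 bases single-end, filtered out mitochondrial and ribosomal sequences, trimmed 2 bases, aligned to mm10 with TopHat2 and Bowtie 1 and quantified genes with Cufflinks as FPKM, and ran Cuffdiff 2.1.1, whose results were not used here. The sources used here name no annotation release or strand setting. FPKM is not a count, so no count test was run, and since it divides by library size, RNAs that take unequal shares of the libraries move all other values. In the file of HET 2, 40 genes held spreadsheet dates in place of values and were left out.

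The deposited FPKM were divided by median-of-ratios factors (0.838 to 1.133), a pseudocount of 0.1 was added before log2, and genes with a mean of at least 0.1 were compared. The split used Nr4a2 FPKM as deposited, above 2 or under 1. A gene was called higher or lower when the sides did not overlap. HET was compared with WT by limma 3.58.1 (trend, R 4.3.3) and, for single genes, by a two-sided exact permutation test. If libraries of a group are not separate animals, its p-values measure technical spread only. Tested on 5 sets of simulated data for this comparison with 12217 genes, limma recovered 64.0% of 1.5-fold and 88.0% of 2-fold changes with 6.8 false calls a run. Each simulated set held many planted changes, up to 8-fold, and noise independent between genes. Many true changes ease the adjusted threshold, so these shares do not carry over to data with few changes. In the real data Reln, at -0.65 on the log2 scale, did not pass. Python 3.11.15, numpy 2.4.6, pandas 2.3.3, scipy 1.17.1 and matplotlib 3.10.9 were used.

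Relative depths came from the steps between low FPKM values. Read numbers used GENCODE M21 lengths on GRCm38, with no correction for effective length, and cover counting error only. In that annotation 97.1% of genes matched 1 position.

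The libraries, gene lists and markers were chosen with earlier results of these data known. Named genes were Nr4a2, Ciart, Npas4 and Klf10, list members without overlap, a set of core activity and clock genes whatever their values, the 12 largest differences in each direction among genes with a mean of at least 1, and up to 3 members of each other list. Alternatives were FPKM as deposited, upper-quartile scaling, a pseudocount of 1, a mean minimum of 1 or no filter, each genotype alone, each library left out, and the replicate number as a block. The values of 1 clock gene are not reported here.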

Additional observations from a re-analysis of the deposited data

How the results depend on the processing

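No named gene without overlap between the sides changed direction in any of 14 settings. Most of these settings could not have reversed such a gene. A lack of overlap fixes the direction when the pseudocount, the filter or the set of libraries changes, apart from small shifts in the scaling factors. Only FPKM as deposited and upper-quartile scaling could readily have done so. Of genes that overlapped, Egr1 (-0.12) and Reln (-0.10) changed sign with WT libraries alone, Ttr (-1.69) and Kcne2 (-0.64) with HET libraries alone, Arc with FPKM as deposited (0.0022) and without WT 3, and Egr1 without WT 3, HET 1 or HET 2. Of 1182 values, 151 moved by more than the spread between libraries. Scaling mattered most for the balance of directions. Of the genes without overlap, 45.9% were higher with median-of-ratios scaling (1069 higher, 1258 lower), 81.1% with FPKM as deposited (865 and 202) and 58.2% with upper-quartile scaling (1298 and 931). As deposited, 2 activity genes and 5 clock genes were lower, and 17 of the 22 higher activity genes and 8 of the 11 higher clock genes kept their call. Klf10, Per1, Per2, Bhlhe40, Bhlhe41, Mt2 and Tsc22d3 were among those that then overlapped, while the NR4A genes, Fos, Npas4, Ciart, Dbp, Tef, Nr1d1, Nr1d2, Arntl and Clock did not. The median of all genes was 0.046 with FPKM as deposited and -0.0080 with median-of-ratios scaling.

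Counts of genes without overlap rise by construction when libraries are left out. With each library left out in turn, 1430 to 1936 genes were higher and 1639 to 2301 lower, with 22 to 29 activity genes higher and 6 to 9 lower, and 11 to 13 clock genes higher and 15 to 16 lower. With WT libraries alone, 4055 genes were higher and 4995 lower, with 40 activity genes higher and 17 lower and 19 clock genes higher. With HET libraries alone, 4203 were higher and 4313 lower, with 18 activity and 22 clock genes lower. Without WT 2 and HET 2, the libraries with the most extreme scaling factors, a setting chosen after seeing the data, 3487 were higher and 3943 lower, with 11 activity genes lower. With a mean minimum of 1, 473 genes were higher and 813 lower, with 11 activity and 5 clock genes higher, because fewer genes were compared.

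The HET against WT test called 1 gene. With the replicate number as a block it called 0. Deviations from the group means correlated at -0.214, -0.355 and 0.112 between same-numbered libraries. With 3 libraries a group, these values cannot decide whether the numbers pair the libraries, and the labels do not say. The HET against WT test called 3 with FPKM as deposited, 0 with a mean minimum of 1, 0 to 3 with each library left out, and 6 without WT 2 and HET 2. The cause was not tested. Depth limits Fosb, Npas2, Zbtb16, Fkbp5, Map3k6, Rrad, Fbxl21, Rorb, Crip1, Nmb and Drd1, which rest on few reads.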
